A study of Homo sapiens with 6 samples.

Results

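The genes described here are 43 genes of the Wnt pathway, chosen by symbol from 27452 rows of a deposited count table. They comprise 10 Wnt ligands, 2 genes for ligand release, 2 secreted inhibitors, 10 frizzled receptors, the co-receptors LRP5 and LRP6, the R-spondin receptors LGR4 and LGR5, the receptor-removing ligases RNF43 and ZNRF3, the dishevelled genes with NKD1, the destruction complex, beta-catenin (CTNNB1) and the TCF/LEF factors. All 43 had a row, and 36 had enough counts to be tested. RNA was sequenced from cells labelled HepG2, an established line from a human liver tumour, grown in serum-containing DMEM to which antibiotics were added, with no further treatment named. A total of 3 libraries came from cells with a control short hairpin RNA (Ctrl shRNA) and 3, here the knockdown libraries, from cells with an shRNA against STAT3, a transcription factor activated by cytokine receptors. Both lines were constructed with shRNA, and the labels name neither the hairpin sequences nor the number of clones, so a difference between the constructed lines cannot be told apart from an effect of the STAT3 shRNA. The labels do not say whether the 3 libraries of a group are separate cultures, so p-values measure the spread between these libraries only, which may be technical.

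Wnt proteins are lipid-modified by PORCN, carried to the cell surface by WLS and bound there by frizzled receptors together with LRP5 or LRP6. Without a ligand, AXIN, APC and the kinase GSK3B hold beta-catenin in a destruction complex. A bound ligand recruits dishevelled, beta-catenin accumulates, and it activates target genes with TCF/LEF factors. RNF43 and ZNRF3 remove frizzled receptors from the cell surface, R-spondins acting through LGR receptors counter them, and AXIN2, NKD1, RNF43, ZNRF3, LGR5, TCF7, LEF1 and DKK1 are widely described as genes that the pathway itself induces. In the liver the pathway is known for setting gene expression around the central vein, and HepG2 is known to carry a deletion in CTNNB1 that removes the residues by which beta-catenin is marked for destruction. Counts per gene do not show whether the cells sequenced here carry it.

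Total counts were 17408543 to 25862027 per library. Levels are given in CPM, counts relative to library size after scaling for library composition. A gene with 0 counts in a library could lie at up to 0.113 to 0.175 CPM, the value of 3 counts, a floor for counting error alone. STAT3 (ENSG00000168610.14) stood at 262, 247 and 246 CPM in control libraries 1 to 3 and at 34.8, 35.8 and 36.2 CPM in knockdown libraries 1 to 3, so each library carried the level that its label names. Markers that define hepatocytes were largely absent: of 20 listed, 12 had a row, 4 reached 1 CPM somewhere, and 7 stayed at 3 counts or fewer throughout, albumin (ALB), APOA1 and APOA2 among them. HepG2 is known to express these 3 genes, so the identity of the line is in doubt and was not tested, and the cells are called HepG2 here only as their label. The summed level of the hepatocyte markers was 43.3 to 48.9 CPM in the control and 66.1 to 69.1 CPM in the knockdown libraries (exact two-sided permutation p = 0.1, n = 3 per group, the smallest that 3 against 3 can give). Summed markers of fibroblasts lay at 53.3 to 61.3 and 36.1 to 38.0 CPM, of bile duct at 1036 to 1306 and 891 to 995 CPM, of leukocytes at 11.3 to 16.5 and 20.9 to 28.2 CPM, of endothelium at 1.48 to 2.14 and 1.35 to 2.18 CPM, and of intestinal epithelium at 1052 to 1421 and 7.31 to 10.9 CPM. The fall of the fibroblast sum was that of COL1A1, from 40.3 ± 2.86 to 15.3 ± 1.10 CPM (SD, n = 3 per group), while DCN and PDGFRB, the other tested fibroblast markers, were not called, with log2 fold changes of 0.30 and 0.33. The hepatocyte sum was mostly FOXA1, at 35.1 ± 1.07 and 49.2 ± 4.08 CPM (SD, n = 3 per group). HNF4A also rose, from 1.51 ± 0.260 to 6.58 ± 1.41 CPM, while CEBPA and TF were not called, with log2 fold changes of 0.41 and -0.97. The bile duct sum was mostly KRT7, which simple epithelia share, the leukocyte sum mostly CD68, and the intestinal sum almost wholly ALPI. The part of such differences in the values below was not tested, and fewer cells of a type cannot be told apart from less RNA per cell.

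The comparison asked which genes of the pathway differed with the STAT3 shRNA. The receptor-removing ligases went opposite ways, RNF43 up from near the floor and ZNRF3 down, FZD10 fell to the floor, and FZD5, FZD7 and WNT6 fell. WNT7B and WNT5A, the ligands with the highest levels per transcript length, rose with the carrier WLS, the inhibitor DKK1 and the receptors LGR4 and FZD8, while the dishevelled genes, the destruction complex, CTNNB1 and the TCF/LEF factors had no call. Of the 36 tested genes, 12 passed a false discovery rate of 0.05 (33.3%), 7 higher and 5 lower, against 17.5% of all 14999 genes tested (9.39% higher and 8.13% lower). The median log2 fold change, STAT3 shRNA over control shRNA, was 0.07 for the 36 genes and -0.01 for all genes tested. The 3 control and 3 knockdown libraries did not overlap for 20 of the 36 genes, against 35.7% of all genes tested. The count of 7 higher genes rested on few libraries: it was 4 when control library 2 or knockdown library 1 was omitted, and 2 without knockdown library 3, and it was 12 with library totals in place of composition scaling. The 5 lower genes, with WNT7B and RNF43, were called in all 15 alternatives. Among the lower genes, FZD5, FZD7 and WNT6 lie on the long arm of chromosome 2, where most of their 40 nearest tested genes were also called lower.

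**Figure D1:**
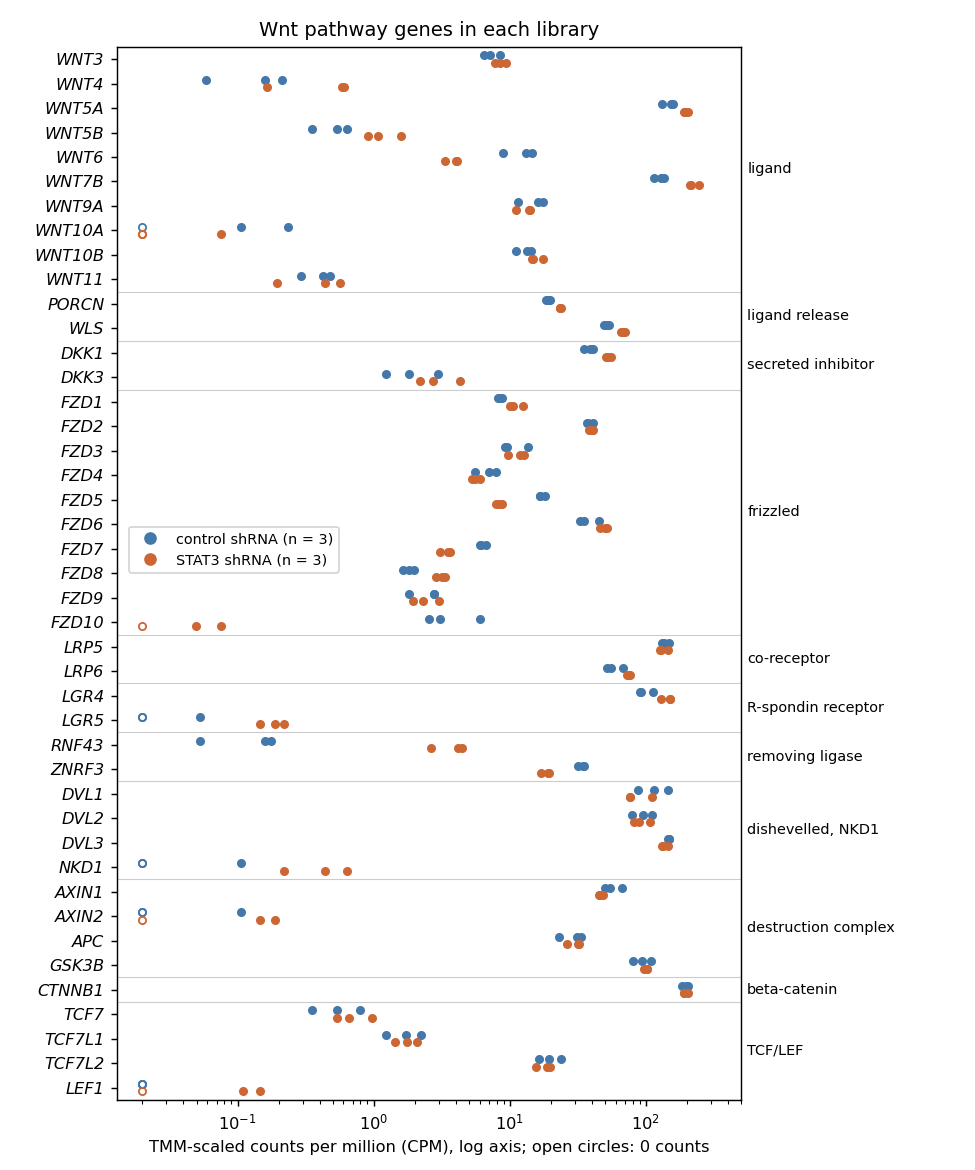
Level of each of the 43 genes in every library, in CPM on a log axis, with blue points for the 3 control shRNA libraries, orange points for the 3 knockdown libraries and open circles for 0 counts. RNF43 and FZD10 show the widest gaps between groups, and AXIN2, NKD1, LGR5 and LEF1 lie below 1 CPM in every library.

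RefSeq promoter windows (GRCh38.p14), from 250 bases before to 50 after an annotated start, were found for 29 of the 43 genes, in 38 windows. They were searched on both strands for the TCF/LEF words CTTTGAA and CTTTGAT and for the STAT word TTCNNNGAA, which do not overlap one another in these windows. A TCF/LEF word was in 1 of the 38 windows, that of DKK1, against 6.86% of 35116 windows in the whole table. The STAT word was in 2 of 38, an APC and a TCF7L2 window, against 7.66% of all windows, and in none of the 11 windows of the 8 called genes that had one. No window was found for WNT7B, WNT10B, WNT11, DKK3, FZD2, FZD3, FZD6, FZD7, FZD10, LRP6, LGR5, ZNRF3, NKD1 and AXIN2. The 250 upstream bases are shown for RNF43, the gene with the largest rise, which has 2 annotated starts, for DKK1, the called gene with a TCF/LEF word, and for LGR4, which acts in the same step as RNF43. Capitals mark the TCF/LEF word of DKK1, at position -95 counted from the start with upstream bases negative; the other windows hold none of these letters, which says nothing of binding elsewhere.
RNF43 upstream start, chr17:58417535-58417784, minus strand: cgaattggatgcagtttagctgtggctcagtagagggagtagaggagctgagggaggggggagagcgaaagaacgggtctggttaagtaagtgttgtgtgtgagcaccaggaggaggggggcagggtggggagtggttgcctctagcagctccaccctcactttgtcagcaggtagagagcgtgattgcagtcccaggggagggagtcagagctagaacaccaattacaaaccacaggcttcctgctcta
RNF43 downstream start, chr17:58402722-58402971, minus strand: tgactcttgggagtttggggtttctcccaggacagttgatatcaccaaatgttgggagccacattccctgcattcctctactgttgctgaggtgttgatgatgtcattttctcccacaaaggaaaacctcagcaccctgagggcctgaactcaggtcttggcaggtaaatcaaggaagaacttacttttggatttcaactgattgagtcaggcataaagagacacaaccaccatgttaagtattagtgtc
DKK1, chr10:52314031-52314280, plus strand: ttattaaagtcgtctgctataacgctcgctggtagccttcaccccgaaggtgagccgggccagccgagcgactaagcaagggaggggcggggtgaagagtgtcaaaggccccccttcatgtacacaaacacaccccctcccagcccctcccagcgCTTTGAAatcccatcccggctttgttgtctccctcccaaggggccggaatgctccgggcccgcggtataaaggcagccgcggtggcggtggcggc
LGR4, chr11:27472791-27473040, minus strand: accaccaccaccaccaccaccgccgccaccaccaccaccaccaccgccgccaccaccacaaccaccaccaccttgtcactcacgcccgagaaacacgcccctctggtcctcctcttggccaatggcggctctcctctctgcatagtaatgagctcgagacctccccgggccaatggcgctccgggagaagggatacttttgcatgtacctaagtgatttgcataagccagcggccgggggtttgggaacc

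RNF43 and ZNRF3 are membrane ubiquitin ligases that mark frizzled receptors for removal. RNF43 (ENSG00000108375.12) had 3, 1 and 3 counts in the controls and 111, 90 and 48 in the knockdown libraries. In CPM these were 0.175, 0.0534 and 0.158 against 4.17, 4.42 and 2.62. The summed counts, 7 against 249, give a ratio of 29.9 after scaling, with an exact 95% interval of 14.3 to 75.1 for counting error. It was called higher (edgeR quasi-likelihood test, adjusted p = 0.000117), and the lowest knockdown library lay far above the highest control library. SUPT4H1, which overlaps RNF43 on the same strand, lay at 53.2 ± 3.54 and 51.7 ± 3.68 CPM (SD, n = 3 per group; adjusted p = 0.813). AC004687.2, which also overlaps RNF43 on the same strand, had at most 12 counts in a library, at 0.0178 ± 0.0308 and 0.333 ± 0.327 CPM, and its reads cannot be told apart from those of RNF43. ZNRF3 (ENSG00000183579.15) stood at 31.7, 34.3 and 35.3 CPM in the control and at 16.9, 19.1 and 19.5 CPM in the knockdown libraries. It fell with a log2 fold change of -0.87 ± 0.106 (SE; adjusted p = 0.00059), and no library overlapped. Per kilobase of the longest annotated transcript, ZNRF3 stayed the higher of the pair in both groups, at 4.93 ± 0.267 CPM per kb against 0.0231 ± 0.0118 for RNF43 in the control and 2.70 ± 0.206 against 0.670 ± 0.175 in the knockdown libraries (SD, n = 3).

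The R-spondin receptor LGR4 (ENSG00000205213.14) stood at 114, 91.1 and 92.4 CPM in the control and at 150, 129 and 150 CPM in the knockdown libraries. Its libraries did not overlap, and it rose by a log2 fold change of 0.53 ± 0.113 (SE; adjusted p = 0.0113). The call was lost on omitting control library 2, knockdown library 1 or knockdown library 3. LGR5, a stem cell marker and target of the pathway, had 0, 1 and 0 counts against 5, 3 and 4, too few to be tested here, and it overlaps TSPAN8 on the other strand, a gene at 14.6 ± 0.451 and 19.99 ± 2.41 CPM (SD, n = 3 per group), so reads of the pair cannot be told apart.

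Of 10 frizzled receptors tested, 3 fell, 1 rose and 6 were not called, against 8.13% of all genes tested that fell and 9.39% that rose. Of those that fell, FZD5 and FZD7 lie on the long arm of chromosome 2. There 24 and 22 of their 40 nearest tested genes were also called lower. FZD10 (ENSG00000111432.4) had 53, 48 and 115 counts in the controls and 2, 1 and 0 in the knockdown libraries, or 3.09, 2.56 and 6.06 CPM against 0.0752, 0.0491 and 0. The summed counts, 216 against 3, make it 85.8-fold lower after scaling (exact 95% interval 28.95 to 419 for counting error; adjusted p = 0.000202). Control library 3 held more than the other controls, and all knockdown libraries were at the floor. FZD5 (ENSG00000163251.4) stood at 16.7, 18.0 and 16.7 CPM against 7.97, 8.79 and 8.29 CPM, a log2 fold change of -1.04 ± 0.116 (SE; adjusted p = 0.000374). FZD7 (ENSG00000155760.2) stood at 6.07, 6.19 and 6.70 CPM against 3.49, 3.63 and 3.05 CPM, a change of -0.89 ± 0.166 (SE; adjusted p = 0.00593). In both, the groups were tight and well apart. FZD8 (ENSG00000177283.7) stood at 1.81, 1.98 and 1.63 CPM against 3.16, 3.34 and 2.89 CPM, a log2 fold change of 0.79 ± 0.219 (SE; adjusted p = 0.0361), from 31 to 37 counts per control library. Its groups did not overlap, yet its call was lost in 8 of 15 alternatives, among them DESeq2, no filter, the replicate block (adjusted p = 0.0729) and the omission of any one library except control library 1.

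FZD2 and FZD6 had the highest levels per transcript length of the frizzled genes and were not called. FZD2 lay at 37.6, 36.9 and 40.8 CPM in the control and at 38.0, 40.5 and 40.7 CPM in the knockdown libraries, with mixed order. FZD6 lay at 45.2, 35.4 and 33.1 CPM against 52.2, 46.1 and 49.7 CPM, with no overlap but an adjusted p of 0.0749. FZD1 lay at 8.22, 8.75 and 8.33 CPM against 10.0, 12.5 and 10.5 CPM, also without overlap (adjusted p = 0.0884). FZD3, FZD4 and FZD9 overlapped, with log2 fold changes of 0.09, -0.28 and -0.03. FZD4 overlaps PRSS23 on the other strand, which lay at 141 ± 9.44 and 55.8 ± 1.12 CPM (SD, n = 3 per group), and without a known strand setting their reads cannot be told apart. The co-receptor LRP5 lay at 131, 137 and 148 CPM against 128, 146 and 129 CPM, with overlapping groups. LRP6, the other co-receptor, lay at 67.6, 55.1 and 51.4 CPM against 75.1, 72.5 and 76.8 CPM, without overlap but just short of the threshold (log2 fold change 0.37 ± 0.113, SE; adjusted p = 0.0551).

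Ligands were led by WNT7B and WNT5A. WNT7B (ENSG00000188064.10), a ligand of epithelia, lay at 115, 136 and 128 CPM in the control and at 215, 246 and 210 CPM in the knockdown libraries. It rose by a log2 fold change of 0.82 ± 0.101 (SE; adjusted p = 0.000606), every knockdown library being above every control. WNT5A (ENSG00000114251.14), best known for signalling without beta-catenin, lay at 159, 152 and 131 CPM against 192, 194 and 202 CPM (0.41 ± 0.0945, SE; adjusted p = 0.0172). Its groups did not overlap, and its call was lost on omitting control library 2, knockdown library 1 or knockdown library 3. WNT6 (ENSG00000115596.4), a ligand described in epithelia of the embryo, lay at 8.98, 13.1 and 14.4 CPM against 3.34, 4.03 and 4.09 CPM, a fall with a log2 fold change of -1.68 ± 0.203 (SE; adjusted p = 0.000563). Control library 1 was the lowest control and still lay above all knockdown libraries.

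Of the other tested ligands none was called. WNT9A lay at 11.5, 16.2 and 17.4 CPM against 11.1, 14.1 and 14.0 CPM, WNT3 overlapped likewise with a log2 fold change of 0.22, and WNT10B lay at 11.1, 13.4 and 14.4 CPM against 14.9, 17.6 and 14.6 CPM, barely apart (adjusted p = 0.214). WNT5B, a close relative of WNT5A, lay at 0.350, 0.534 and 0.633 CPM against 0.902, 1.08 and 1.58 CPM, without overlap and with an adjusted p of 0.0696. WNT4, WNT10A and WNT11 were too low to be tested, with at most 16, 4 and 15 counts in a library. For WNT4 the summed counts were 8 against 31, a ratio of 3.25 with an exact 95% interval of 1.46 to 8.19 for counting error, and its libraries overlapped.

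Genes for ligand release and secreted inhibitors had log2 fold changes from 0.29 (PORCN) to 0.62 (DKK3). WLS (ENSG00000116729.14), the carrier of lipid-modified Wnt, lay at 50.6, 53.7 and 49.6 CPM in the control and at 65.6, 70.0 and 67.9 CPM in the knockdown libraries, a rise of 0.40 ± 0.0862 on the log2 scale (SE; adjusted p = 0.0118). PORCN, the acyltransferase of Wnt, lay at 18.6, 19.2 and 19.6 CPM against 23.3, 23.4 and 23.7 CPM, tight and apart in both groups but not called (0.29 ± 0.0958, SE; adjusted p = 0.0656). DKK1 (ENSG00000107984.10), which blocks LRP5 and LRP6, lay at 34.9, 40.8 and 38.8 CPM against 50.6, 55.6 and 52.8 CPM. It rose by 0.47 ± 0.0987 (SE; adjusted p = 0.0105) with no overlap. The calls of WLS and DKK1 were lost only without knockdown library 3, with adjusted p of 0.0618 and 0.0527. DKK3, a divergent relative of DKK1, lay between 1.22 and 4.32 CPM with overlapping groups and was not called (adjusted p = 0.289).

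Of 10 intracellular genes tested none was called by edgeR, against 17.5% of all genes tested, and none by DESeq2, while 1, AXIN1, had an unadjusted edgeR p under 0.05 (0.0351). CTNNB1, which encodes beta-catenin, lay at 203, 199 and 183 CPM in the control and at 189, 202 and 192 CPM in the knockdown libraries, and its log2 fold change of -0.0025 ± 0.0823 (SE; adjusted p = 0.989) changed sign among alternatives. DVL3 lay at 149, 146 and 149 CPM against 145, 131 and 133 CPM, a small gap without overlap (-0.11 ± 0.0813, SE; adjusted p = 0.385). DVL1 and DVL2 spread widely within groups, DVL1 from 87.3 to 146 CPM in the control and from 76.6 to 111 CPM in the knockdown libraries. DVL1 was called lower only with the GC correction, with and without the replicate block (adjusted p = 0.0465 and 0.048). In the destruction complex, the kinase GSK3B lay at 108, 93.9 and 80.6 CPM against 103, 97.0 and 103 CPM, overlapping. The scaffold AXIN1 lay at 50.1, 54.1 and 66.6 CPM against 46.0, 48.3 and 45.3 CPM, apart but not called (-0.29 ± 0.118, SE; adjusted p = 0.126), though it was called lower without control library 1 (adjusted p = 0.0332). APC, the other scaffold, had a log2 fold change of 0.05 with overlapping libraries. TCF7L2, the TCF/LEF gene with the highest level per transcript length, lay at 23.6, 19.3 and 16.4 CPM against 19.7, 15.5 and 18.9 CPM, overlapping. TCF7L1 and TCF7 also overlapped, TCF7 at no more than 0.977 CPM.

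**Figure D2:**
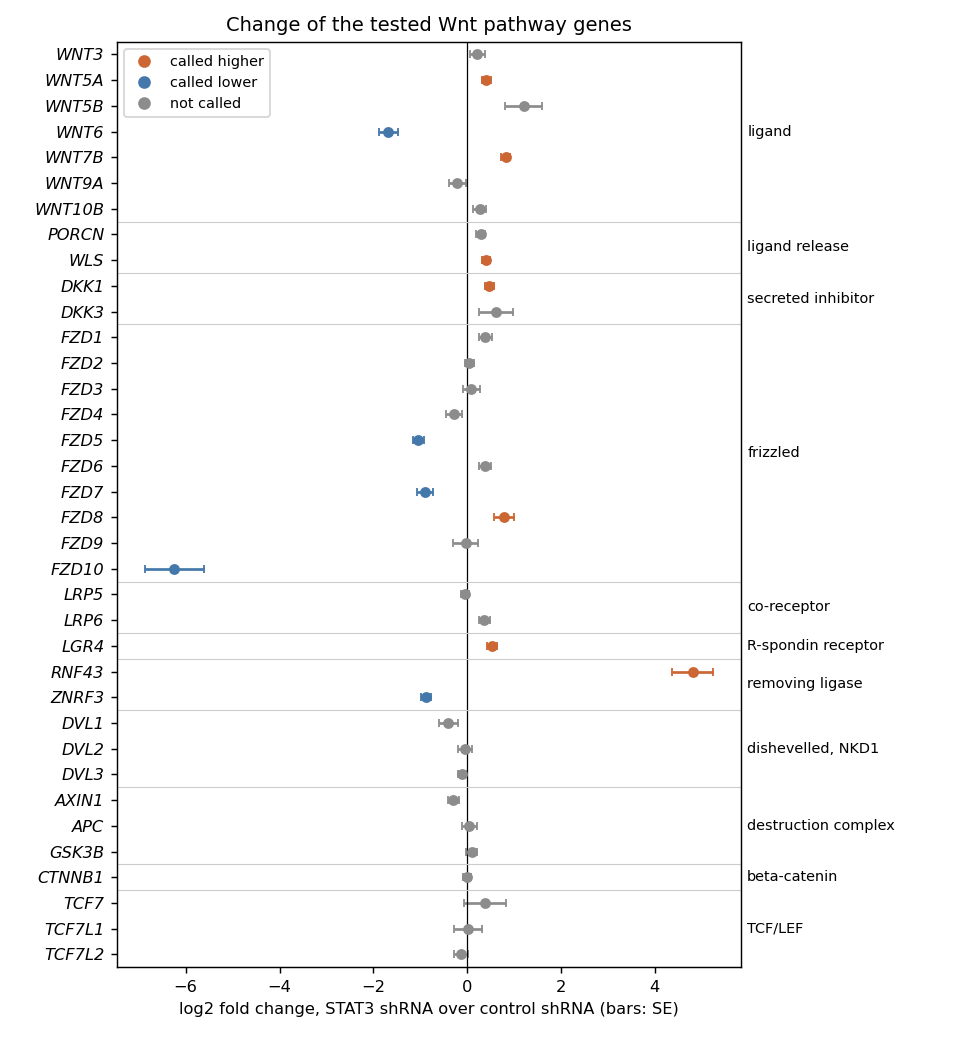
Log2 fold change with its SE for the 36 tested genes, STAT3 shRNA over control shRNA, from the model fitted on all genes, with 3 libraries per group. Calls lie at the ligands, receptors, their ligases and secreted or carrier proteins, and none of the 10 genes from dishevelled to TCF/LEF was called, with log2 fold changes from -0.40 (DVL1) to 0.38 (TCF7).

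Genes that the pathway is known to induce were near the floor in part. AXIN2, the target most used as a readout of beta-catenin, had 0, 2 and 0 counts in the control and 5, 3 and 0 in the knockdown libraries. LEF1 had no count in any control library and had 0, 3 and 2 counts in the knockdown libraries. NKD1, an inhibitor of dishevelled, had 0, 0 and 2 counts against 17, 9 and 4, a summed ratio of 12.6 with an exact 95% interval of 3.20 to 109 for counting error. With no filter on low counts, NKD1 was called higher (edgeR adjusted p = 0.0251 over 27207 genes), while AXIN2, LEF1, LGR5 and WNT4 were not (adjusted p = 0.605, 0.319, 0.243 and 0.232). Among the 8 listed as induced by the pathway, 4 were tested, RNF43 and DKK1 rose, ZNRF3 fell and TCF7 was not called. That is 3 of 4 called, against 17.5% of all genes tested.

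Levels of different genes were compared per kilobase of the longest annotated transcript. In the control libraries CTNNB1 was first at 39.9 ± 2.16 CPM per kb (SD, n = 3), followed by DVL1 at 35.9 ± 9.13, WNT7B at 32.3 ± 2.71, DVL2 at 31.5 ± 5.11, DVL3 at 27.7 ± 0.335, LRP5 at 26.9 ± 1.66 and WNT5A at 23.9 ± 2.38 CPM per kb. Neighbours in that order lay within the sum of their SDs. In the knockdown libraries WNT7B was first at 57.0 ± 5.05 CPM per kb, above CTNNB1 at 39.8 ± 1.41, WNT5A at 31.7 ± 0.922, DVL2 at 30.6 ± 4.55 and DKK1 at 29.6 ± 1.41 CPM per kb, and WNT7B and CTNNB1 were apart by more than their SDs. Among frizzled genes FZD2 led with 18.2 ± 0.976 CPM per kb in the control and 18.8 ± 0.724 in the knockdown libraries, ahead of FZD6 at 10.0 ± 1.70 and 13.0 ± 0.808. The transcript isoforms present were not known, so these levels hold only as far as the longest transcript stands for the gene.

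Some genes lie among neighbours that moved the same way. For each of the 43 genes the median log2 fold change of the 40 nearest tested genes was taken, 20 on each side in the order of GENCODE 29, or fewer at a chromosome end. It lay within 0.2 of 0 for 39 genes. The other 4 were the members on the long arm of chromosome 2: the median was -0.54 around FZD5 (24 of 40 neighbours called lower), -0.56 around FZD7 (22 of 40), -0.67 around WNT6 (28 of 40) and -0.68 around WNT10A, the neighbour of WNT6. The log2 fold changes of FZD5, FZD7 and WNT6, -1.04, -0.89 and -1.68, were each larger in size than the median of their neighbours. ZNRF3, FZD10 and RNF43 lay among genes with medians of -0.05, -0.16 and 0.16. A regional change along chromosome 2 and a change of each gene by itself cannot be told apart for FZD5, FZD7 and WNT6.

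**Figure D3:**
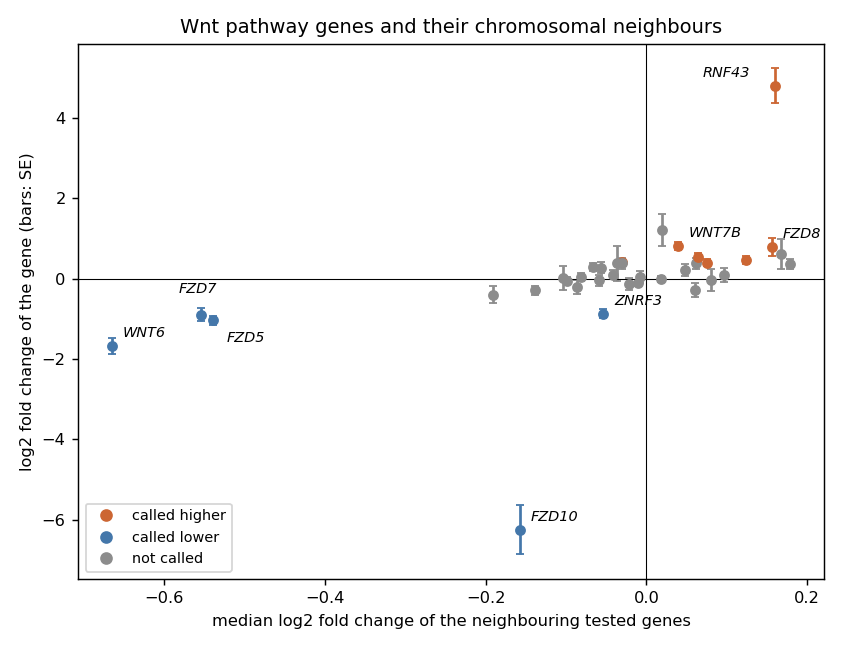
Log2 fold change of each tested gene (vertical axis, bars SE) against the median log2 fold change of its 40 nearest tested genes, or 30 at a chromosome end (horizontal axis). WNT6, FZD7 and FZD5 sit apart on the left at -0.67 to -0.54, and all other points lie within 0.2 of 0 on the horizontal axis.

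Part of the difference between control libraries 1 and 3 ran with the base composition of the transcripts. Other pairs of libraries within a group were not examined in this way. DVL1, with a GC content of 67.2% in its longest transcript, was higher in control library 3 than in control library 1 by 0.75 on the log2 scale, WNT6 (70.5% GC) by 0.69 and AXIN1 (63.8% GC) by 0.41. APC (39.6% GC) was lower there, at -0.55, as were FZD3 (34.9% GC) at -0.55 and TCF7L2 (45.8% GC) at -0.53. Over the 36 genes, which share the same 2 libraries, this difference had a Pearson r of 0.64 and a Spearman rho of 0.71 with GC content, and over all 14370 tested genes with a known GC content 0.46 and 0.61. The difference between the groups had an r of -0.17 and a rho of -0.27 with GC content over the 36 genes. With a correction of each library for GC content, added after the data were seen, all 12 calls were kept and WNT5B, WNT10B, PORCN, FZD6 and LRP6 were also called higher and DVL1 lower, or 18 of 36, while the share of all genes called went from 17.5% to 27.6%.

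**Figure D4:**
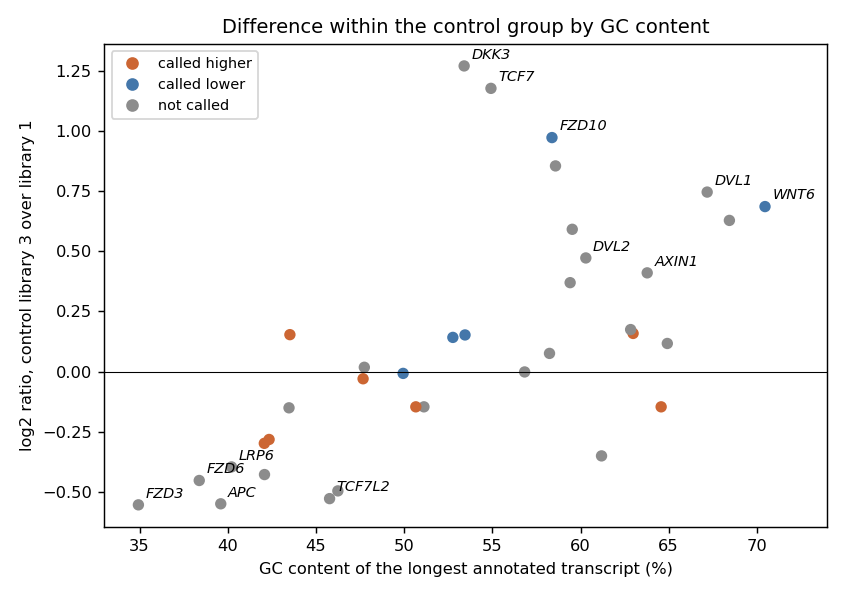
Difference between control libraries 3 and 1 (log2 ratio of CPM) against the GC content of the longest annotated transcript for the 36 tested genes, coloured by their call between groups. Genes under 43% GC such as APC and FZD3 lie below 0, and DVL1, WNT6 and AXIN1 lie above it, while FZD8 (64.6% GC) and TCF7L1 (61.2% GC) lie below it.

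Other genes of the pathway were listed by role, without the members, and 67 of 121 were tested: 13 rose and 11 fell (35.8% called, against 17.5% of all genes tested), with a median log2 fold change of 0.005. Among other ligands and agonists only WNT2B was tested, and it rose from 1.04 ± 0.0342 to 2.52 ± 0.288 CPM (SD, n = 3 per group; adjusted p = 0.00834). Of 5 other inhibitors that are secreted or at the cell surface, 2 fell and 3 were not called, against 8.13% of all genes tested that fell. Both that fell are membrane proteases that cleave Wnt: TRABD2A from 40.7 ± 3.20 to 22.9 ± 0.666 CPM and TRABD2B from 5.90 ± 0.767 to 2.71 ± 0.253 CPM. The inhibitor APCDD1, named after its values were seen, was too low to be tested. It had 0 counts in every control library and 18, 9 and 16 in the knockdown libraries. Of 10 receptors and polarity genes outside the beta-catenin branch, 3 rose and 2 fell, 5 of 10 against the same 17.5%. The receptor tyrosine kinase family gene PTK7 (0.64 ± 0.099, log2 fold change ± SE), the formin DAAM1 (0.69 ± 0.155) and the receptor ROR1 (1.06 ± 0.239) rose, and ROR2, a receptor for WNT5A, fell (-0.37 ± 0.0916), as did PRICKLE3 (-0.41 ± 0.101). The higher count was 1 if control library 2, knockdown library 1 or knockdown library 3 was omitted. The lower count was 0 with library totals or on omitting knockdown library 1 or 3, and 1 on omitting control library 2 or 3 or knockdown library 2.

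Of 18 other cytoplasmic factors, 1 rose and 2 fell (16.7%, close to the 17.5% of all genes tested). NKD2, the paralog of NKD1, rose from 1.98 ± 0.263 to 6.16 ± 0.163 CPM (1.63 ± 0.185; adjusted p = 0.000412). FRAT2, which binds GSK3, fell (-0.77 ± 0.144), as did the kinase CSNK1E (-0.58 ± 0.113). Of 20 nuclear partners, 3 rose and 4 fell (35.0%, against the same 17.5%). The corepressor TLE4 rose from 18.5 ± 0.122 to 44.5 ± 2.46 CPM (1.27 ± 0.0957), while its relatives TLE2 (-0.47 ± 0.101) and TLE3 (-0.41 ± 0.0915) and the beta-catenin antagonist CBY1 (-0.67 ± 0.141) fell. Of the other relatives, named after their values were seen, TLE1 also rose (0.60 ± 0.145; adjusted p = 0.0208) and TLE5 was not called (-0.17 ± 0.166). The nuclear counts became 1 higher and 1 lower on omitting knockdown library 1 or 3, and 1 higher and 2 lower on omitting control library 2.

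Of 9 tested genes described as general targets of beta-catenin, 4 rose and none fell, against 9.39% of all genes tested that rose. SP5, named after its values were seen, was too low to be tested. It had 15, 25 and 10 counts in the control and 6, 9 and 4 in the knockdown libraries, without overlap in CPM. SP5 lies on chromosome 2, as do FZD5, FZD7 and WNT6, and the genes around it were not examined. The other untested genes of this list had at most 11 counts in a library and overlapped, with higher means in the knockdown libraries. The receptor EPHB2 (3.29 ± 0.174), the protease MMP7 (1.77 ± 0.181), the growth factor BMP4 (1.20 ± 0.133) and the transcription factor SOX4 (0.69 ± 0.105) rose. The cause of these rises was not tested. MYC and CCND1, the most cited targets, lay at 349 ± 8.08 and 174 ± 15.6 CPM in the control and at 343 ± 2.65 and 194 ± 2.46 CPM in the knockdown libraries, and neither was called. Of 4 tested targets described in liver, 1 fell and 1 rose, against 8.13% and 9.39% of all genes tested. TBX3 fell from 74.8 ± 1.79 to 34.4 ± 0.852 CPM (-1.12 ± 0.0854) and the transporter SLCO1B3 rose from 6.22 ± 1.73 to 17.5 ± 1.84 CPM (1.49 ± 0.196). GLUL, the glutamine synthetase of cells around the central vein, lay at 49.4 ± 2.13 and 44.4 ± 1.80 CPM (adjusted p = 0.281), close together though without overlap.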

How the data were processed

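The authors deposited whole-number counts per gene for 6 libraries, with Ensembl identifiers and symbols per the file headers. Aligner, counter, genome build, annotation, library kit and strand setting: not given in the sources used here. Hence reads of overlapping genes cannot be told apart. The test used edgeR 4.0.16 under R 4.3.3: filterByExpr (minimum count 10, total 15) kept 14999 genes, TMM factors scaled the libraries, and a two-sided quasi-likelihood F test with robust dispersion and group only was fitted on the whole table, with Benjamini-Hochberg adjustment over all genes at 0.05. Scaling assumes that most genes do not differ. SE is the log2 fold change divided by the square root of F. Ratios of summed counts have exact Clopper-Pearson 95% intervals, for counting error only. GENCODE 29, matched by identifier, gave length, GC content and gene order. As the build of the counts is not named, no gene coordinates are given, and promoter coordinates are those of RefSeq on GRCh38.p14.

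The genes, the pathway lists and the rule for named genes were chosen with earlier results of these data known. By that rule called members are given in every library, uncalled ones by role, and up to 4 called genes of each other list by adjusted p. Pairs of libraries within a group differed by 4.35 to 45.9 per degree of freedom in a chi-square test over genes, more than counting noise, so none was merged; the test does not tell separate cultures from separate preparations of one RNA. The procedure was tested on simulated counts. Alternatives were upper-quartile and RLE scaling, library totals, no filter, a 1 CPM filter in 3 libraries, DESeq2 1.42.0, the library number as a block, each library left out, and, added after seeing the data, a GC correction (lowess span 0.3) with and without the block.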

Additional observations from a re-analysis of the deposited data

How the results depend on the processing

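Of 12 called genes, 7 were called in all 15 alternatives (WNT6, WNT7B, FZD5, FZD7, FZD10, RNF43 and ZNRF3), and no called gene changed direction in any. The number called higher, 7, was 12 with library totals, 12 with the GC correction and 12 with the GC correction and replicate block together, and 2 to 9 with a library left out. The number called lower stayed at 5 or 6. With a library left out the median log2 fold change was 0.0346 to 0.18, against 0.07. The STAT3 call held in every alternative (-2.84 to -2.72). The labels do not say whether the numbers in the titles pair the libraries. Same-numbered libraries deviated together with correlations of 0.28, 0.19 and -0.23, too few values to decide it. A replicate block gave 11 called genes, all among the 12, with FZD8 lost. Not every library correlated best with its own number. The block took the calls over all genes from 2627 to 2278. All genes had a median log2 fold change of 0.09 with library totals and 68.7% of calls higher, against 53.6%; upper-quartile scaling gave 62.3%.

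Only uncalled genes near 0 changed sign. With upper-quartile scaling, library totals, GC correction and GC correction with replicate block, the log2 fold changes were 0.0212, 0.0673, 0.16 and 0.14 for FZD9, 0.006, 0.0509, 0.0611 and 0.0646 for LRP5, and 0.0119, 0.0589, 0.0498 and 0.048 for DVL2. CTNNB1 was at 0.0503, 0.093 and 0.0003 with upper-quartile scaling, library totals and the 1 CPM filter, and APC at -0.0157 and -0.0139 with the GC correction and with it and the replicate block. With a library left out the log2 fold changes ran from -0.0028 to 0.3 for FZD3, -0.2122 to 0.1056 for FZD9, -0.1122 to 0.0079 for LRP5, -0.1659 to 0.0886 for DVL2, -0.095 to 0.17 for APC, -0.0403 to 0.0404 for CTNNB1, -0.1766 to 0.2494 for TCF7L1 and -0.2452 to 0.027 for TCF7L2. The cause was not tested. Depth limits WNT4, WNT10A, WNT11, LGR5, NKD1, AXIN2 and LEF1, which were not tested in the main analysis.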
